A study of Mus musculus with 12 samples.

Results

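Transcripts of 38 Kupffer cell, macrophage and other myeloid marker genes were described in the liver of wild-type (WT) C57BL/6J mice. The genes were chosen by symbol, as markers of resident Kupffer cells, macrophages in general, recruited monocytes, lipid-associated macrophages, neutrophils, antigen presentation and leukocyte signalling. Each symbol matched 1 of the 54532 gene IDs of the expression table. The 12 liver RNA libraries formed 4 groups of 3. CD was a diet that the labels do not spell out and HFD a high-fat diet, both without dextran sulfate sodium (DSS). In CD_DSS and HFD_DSS the same diets were combined with 2% DSS, a polymer that damages the epithelium of the colon and serves to provoke colitis in mice. All groups shared the strain and genotype, and age, sex, and the route and length of DSS treatment are not given in the labels. Whether each library stands for its own animal is not stated, so the tests reflect only how far these samples spread, which may be technical. Expression was given as FPKM, the fragments of a gene scaled to its exon length and to the depth of the library.

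Kupffer cells are the resident macrophages of the liver. They line the sinusoids, where they take up bacteria and bacterial products that reach the liver from the gut through the portal vein, and they clear old red cells and apoptotic cells. When the liver or the gut is inflamed, monocytes and neutrophils can enter from the blood. Recruited macrophages can replace lost Kupffer cells, and a subset in fatty liver, named lipid-associated macrophages, carries markers such as Trem2, Gpnmb, Spp1 and Cd9. PU.1, encoded by Spi1, is a transcription factor of the ETS family on which macrophages and neutrophils depend.

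The RefSeq promoter windows of these genes (GRCm38.p6, 250 bases before to 50 after the start) were searched on both strands for GAGGAAGT, a core sequence bound by PU.1. The looser GAGGAA, which every GAGGAAGT also contains, was searched as well. Of the 38 genes, 31 had a window. GAGGAAGT or its reverse complement ACTTCCTC was found for 5 of the 31 (16.13%: C1qc, Ctss, Spp1, S100a8 and Ly6g), against 3.202% of all 32851 windows and 3.689% of the 27025 genes in the table. GAGGAA or its reverse complement TTCCTC was found for 16 of the 31 (51.61%), against 31.25% of genes. A match of letters is a description of the sequence and does not show binding. Its relation to the changes in expression described below was not tested. The windows shown are those of Cd9 and Marco, which changed most clearly with DSS, and of C1qc and S100a8, which hold the longer motif. Each is cut to the bases before the annotated gene start and written 5′ to 3′ on the strand of the gene, with matches to either motif in capitals. The Cd9 window is chr6:125494792-125495010 (minus strand, 219 bases), that of Marco chr1:120505025-120505274 (minus strand, 250 bases), that of C1qc chr4:136893066-136893164 (minus strand, 99 bases) and that of S100a8 chr3:90668821-90668977 (plus strand, 157 bases).
Cd9: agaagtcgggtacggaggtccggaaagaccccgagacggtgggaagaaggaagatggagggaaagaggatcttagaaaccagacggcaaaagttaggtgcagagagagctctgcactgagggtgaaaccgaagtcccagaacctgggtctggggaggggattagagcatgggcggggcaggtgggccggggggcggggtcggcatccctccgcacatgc
Marco: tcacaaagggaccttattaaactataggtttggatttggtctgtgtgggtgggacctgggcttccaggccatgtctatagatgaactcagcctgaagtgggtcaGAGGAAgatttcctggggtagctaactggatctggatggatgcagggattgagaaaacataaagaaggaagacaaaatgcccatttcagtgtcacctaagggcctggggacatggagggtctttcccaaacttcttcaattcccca
C1qc: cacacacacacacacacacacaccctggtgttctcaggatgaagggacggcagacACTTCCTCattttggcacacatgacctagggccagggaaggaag
S100a8: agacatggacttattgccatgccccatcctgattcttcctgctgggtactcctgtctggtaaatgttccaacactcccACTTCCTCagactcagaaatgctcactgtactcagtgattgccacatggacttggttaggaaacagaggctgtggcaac
The bases shown hold no match for Cd9, 1 GAGGAA for Marco, and 1 GAGGAAGT on the opposite strand for both C1qc and S100a8.

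Depth was 23.4 to 29.4 M fragments per library, recovered from the FPKM steps. On the first principal component of all tested genes (43.3% of the variance), 3 libraries lay apart from the rest of their groups: HFD 1, CD_DSS 1 and HFD_DSS 2. Saa1, an acute phase gene of hepatocytes, showed the same split. In replicate order it measured 15.0, 49.2 and 32.8 FPKM in CD, 579, 19.9 and 22.4 in HFD, 9.14, 595 and 483 in CD_DSS, and 1104, 191 and 2670 in HFD_DSS. The myeloid markers followed this split. As the median over the tested markers of log2(FPKM + 1) minus the mean of the gene, the CD libraries had −0.15, −0.43 and −0.37, the HFD libraries 0.18, −0.30 and −0.40, the CD_DSS libraries −0.25, 0.38 and 0.52, and the HFD_DSS libraries 0.41, −0.07 and 0.43. The 6 libraries with the highest Saa1 were also the 6 with the highest marker median, and the part of this acute phase state in the marker results was not tested. CD_DSS 1 was the lowest library of its group for 25 of 31 tested markers, HFD_DSS 2 for 29, and HFD 1 was the highest of its group for 24. Whether labels of libraries were exchanged was not tested. CD_DSS 1, which was low in Saa1 and most markers, measured 15.3 FPKM of Cd9 and 14.9 of Cxcl1, against at most 8.84 and 1.46 in CD. All results below use all 12 libraries unless they are said to leave these 3 out.

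**Figure D1:**
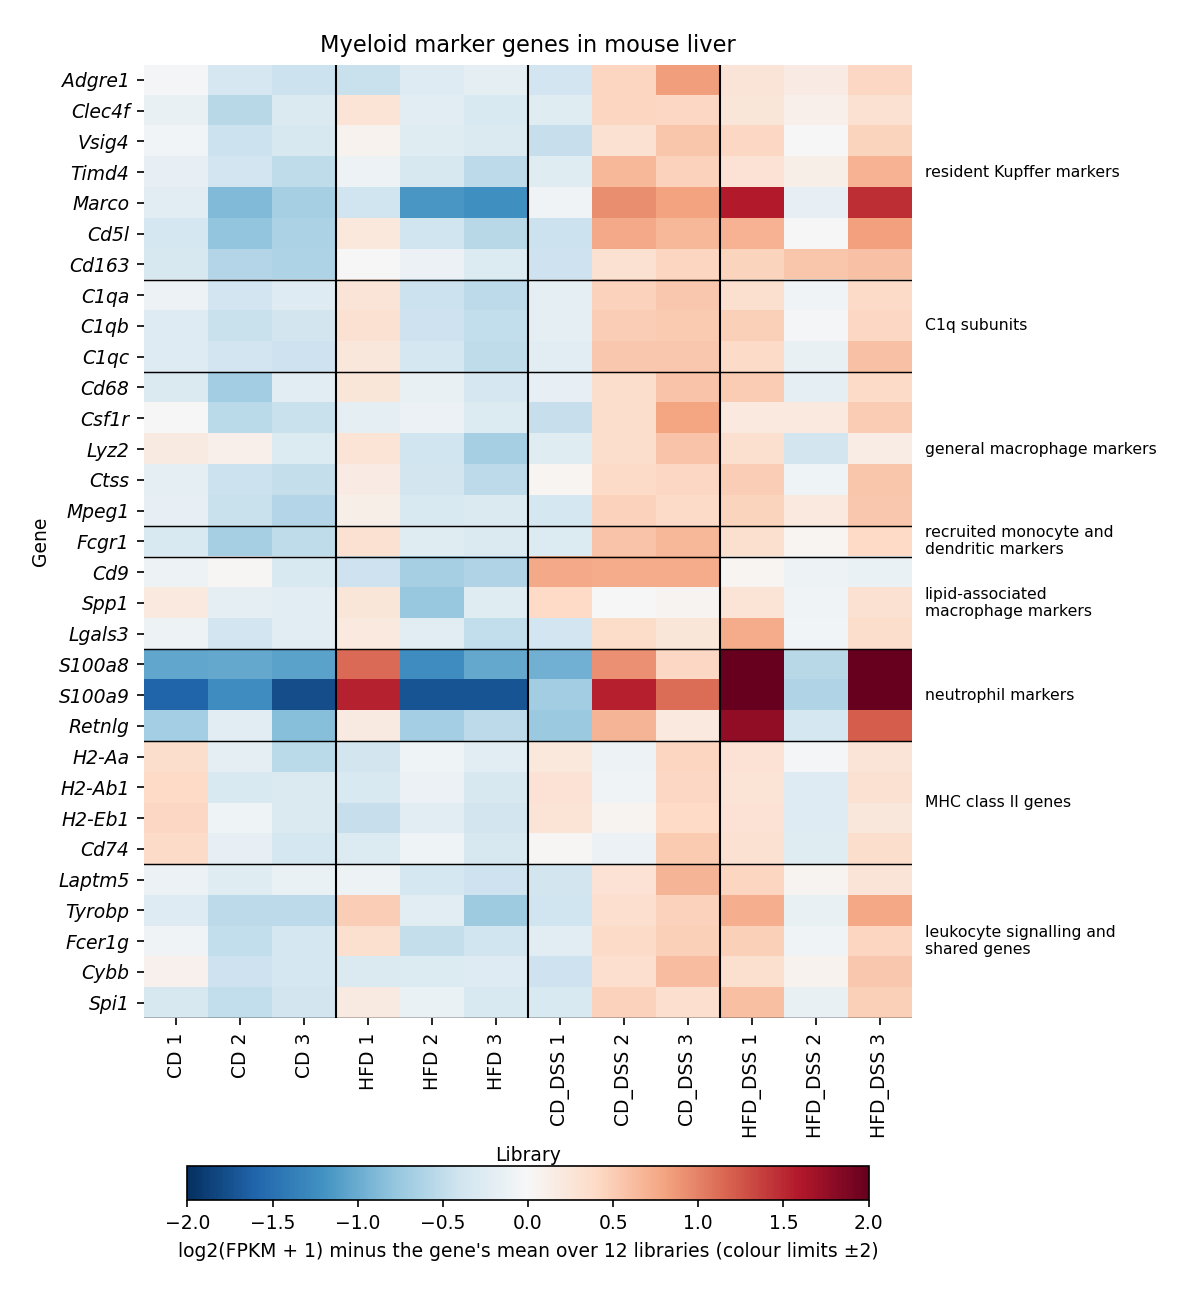
Expression of the 31 tested marker genes (rows, grouped by role) in the 12 libraries (columns, grouped by diet and DSS), as log2(FPKM + 1) minus the mean of the gene over all libraries. Red is above and blue below the mean, and colours are limited at ±2, which S100a8 and S100a9 exceeded in HFD_DSS 1 and 3. CD_DSS 1 resembles the untreated libraries in most rows but not, for example, in that of Cd9, and HFD 1 is above HFD 2 and 3 in most rows.

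Of the 38 genes, 31 reached 1 FPKM in at least 3 libraries and were tested with the 10806 genes that did so (limma on log2(FPKM + 1), two-sided, Benjamini-Hochberg adjustment over all of them, called at an adjusted p under 0.05). The other 7 stayed under this level. Their highest values in any library were 0.266 FPKM for Itgam, 0.436 for Itgax, 0.452 for Ccr2, 0.336 for Trem2, 0.0876 for Gpnmb, 0.177 for Ly6g and 1.32 for Ptprc. They encode integrin and chemokine receptors of monocytes and dendritic cells, a pair of lipid-associated macrophage proteins, a neutrophil surface protein and the pan-leukocyte phosphatase CD45. Ptprc was at or above 1 FPKM only in HFD_DSS 1 and 3. Ly6g was listed at 0 in 8 libraries and rested on at most 4 fragments. Of the 31 tested genes, 28 were at or above 1 FPKM in all 12 libraries, and the 3 neutrophil genes S100a8, S100a9 and Retnlg were not.

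In group means the markers were higher with DSS on both diets, but few single genes passed the test. All 31 tested genes had a positive log2 fold change on CD and all 31 on HFD, as had 48.6% and 47.9% of all tested genes. The markers moved together across libraries, so they are not 31 separate observations. The marker median of CD_DSS 1 (−0.25) lay within CD, and that of HFD_DSS 2 (−0.07) lay under HFD 1 (0.18). The 28 genes expressed in every library had a median log2 fold change of 0.56 on CD and 0.48 on HFD, against −0.01 in both for all tested genes. In CD_DSS against CD, Cd9 alone was called, 1 of 31 (3.23%), where 4.8% of all tested genes were called, 2.01% higher and 2.79% lower. In HFD_DSS against HFD, Marco and Cd9 were called, 2 of 31 (6.45%), where 4.83% of all tested genes were called and 1.73% higher. All 3 DSS libraries lay above all 3 untreated ones for 10 of the 31 markers on each diet (32.3%), against 12.6% of tested genes on CD and 12.4% on HFD. Those on CD include S100a8 and S100a9, which passed the expression level through the libraries in which they were high. Those on HFD include no neutrophil gene. In these bulk samples, more cells of a type and more RNA per cell cannot be told apart.

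When the DSS effect was averaged over both diets, 11 of 31 markers rose (35.5%) and none fell, where 20% of all tested genes were called and 8.72% were called higher. The 11 were the Kupffer cell genes Adgre1, Timd4, Marco, Cd5l and Cd163, the C1q subunits C1qb and C1qc, the general macrophage genes Ctss and Mpeg1, the Fc receptor gene Fcgr1, and Cd9. No neutrophil, MHC class II or leukocyte signalling gene was called. A further fit left out HFD 1, CD_DSS 1 and HFD_DSS 2, after the data were seen and by values that move with these markers. In it 25 of 31 were called higher on CD (18.3% of 10611 genes called, 8.47% higher) and 26 on HFD (19.1% called, 8.2% higher). In the averaged effect 27 were then called higher (31.7% of genes called, 14% higher), which left out only the 4 MHC class II genes. The number of called genes thus depended on these 3 libraries, and leaving out 1 library at a time gave between 5 and 24 called genes.

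**Figure D2:**
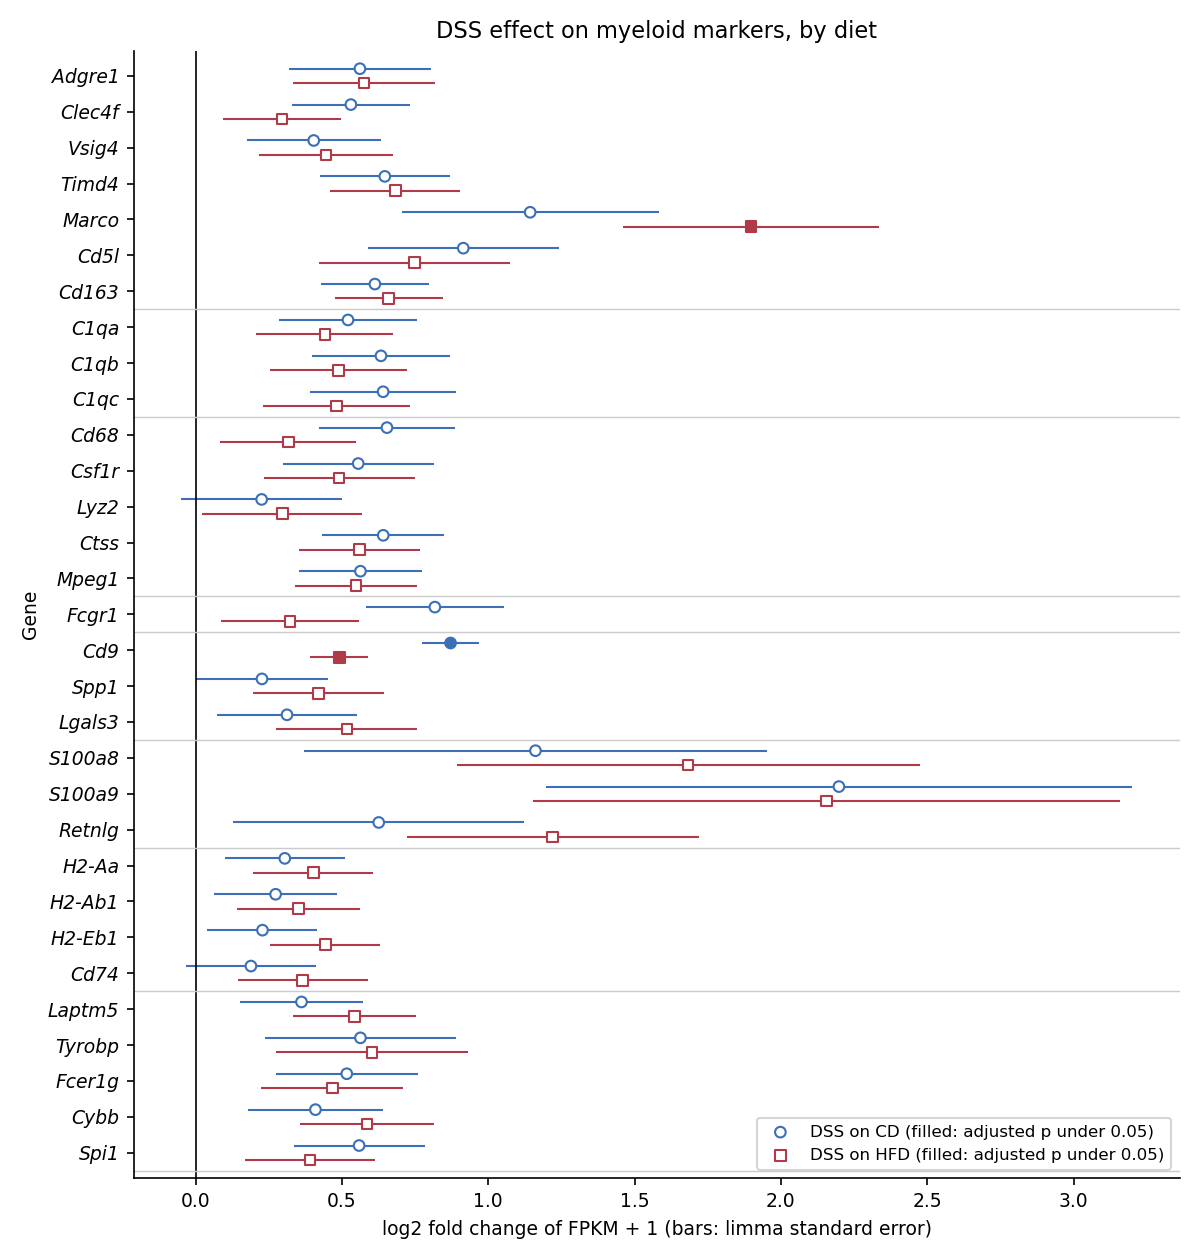
Log2 fold change of FPKM + 1 with DSS for the 31 tested markers (rows), on CD (blue circles) and on HFD (red squares), with the limma standard error as bars. Filled symbols passed an adjusted p of 0.05: Cd9 on both diets and Marco on HFD. All symbols lie above 0, the neutrophil genes have the widest bars, and Cd9 has the narrowest.

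Of 7 resident Kupffer cell markers, the longest list, 5 rose in the averaged DSS effect, where 8.72% of all tested genes were called higher. The C1q subunits had 2 of 3. Values are given for libraries 1, 2 and 3 of each group in that order. Marco, a scavenger receptor that binds bacteria (chr1:120474538-120505024, minus strand), measured 4.94, 2.73 and 3.38 FPKM in CD, 4.23, 2.08 and 1.95 in HFD, 5.59, 12.1 and 11.0 in CD_DSS, and 19.8, 5.14 and 18.2 in HFD_DSS. Both DSS groups lay above the untreated group of their diet, though CD_DSS 1 and HFD_DSS 2 only just did so. The group means were 3.68 ± 1.14 (SD, n = 3) in CD, 2.75 ± 1.28 in HFD, 9.59 ± 3.51 in CD_DSS and 14.4 ± 8.05 in HFD_DSS. On HFD the difference was 3.73-fold in FPKM + 1 (log2 1.90, SE 0.44, limma adjusted p = 0.0358). On CD it was 2.21-fold (log2 1.14, SE 0.44, limma adjusted p = 0.148) and not called, and the averaged effect was 1.52 (SE 0.31, limma adjusted p = 0.00787). The call on HFD was lost without any 1 of CD 2, CD 3, HFD 2, HFD 3, HFD_DSS 1 or HFD_DSS 3 (limma adjusted p up to 0.150), and also without a filter on low values, with 2 groups alone, with voom and with a replicate block, while the averaged call held without each single library (up to 0.0238).

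Timd4, a phosphatidylserine receptor for apoptotic cells and a marker of long-lived Kupffer cells (chr11:46810800-46844332, plus strand), measured 4.24, 3.52 and 3.17 FPKM in CD, 4.50, 3.74 and 3.10 in HFD, 3.98, 8.35 and 7.13 in CD_DSS, and 6.22, 5.40 and 8.57 in HFD_DSS. CD_DSS 1 lay within CD, while all HFD_DSS libraries lay above HFD. Its averaged log2 fold change was 0.66 (SE 0.16, limma adjusted p = 0.0146). Cd163, the scavenger receptor for haemoglobin-haptoglobin complexes (chr6:124304656-124330527, plus strand), measured 4.94, 3.91 and 3.84 FPKM in CD, 6.37, 5.80 and 5.14 in HFD, 4.54, 8.10 and 8.99 in CD_DSS, and 9.08, 9.91 and 10.0 in HFD_DSS. HFD_DSS 2, low for most markers, was not low for Cd163. Its averaged log2 fold change was 0.64 (SE 0.13, limma adjusted p = 0.00797). Both averaged calls held without each single library.

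Adgre1, which encodes the macrophage surface protein F4/80, measured 10.4, 8.20 and 7.63 FPKM in CD, 7.57, 8.77 and 9.15 in HFD, 7.93, 14.7 and 19.7 in CD_DSS, and 12.9, 12.0 and 14.6 in HFD_DSS. Its highest library, CD_DSS 3, and a library as low as the controls, CD_DSS 1, fell in the same group. Cd5l, a secreted apoptosis inhibitor of macrophages, measured 61.0, 44.8 and 50.1 FPKM in CD, 90.2, 59.1 and 52.7 in HFD, 57.3, 132 and 124 in CD_DSS, and 127, 77.4 and 138 in HFD_DSS. HFD 1 exceeded HFD_DSS 2, so the groups overlapped on both diets. The averaged log2 fold changes were 0.57 (SE 0.17, limma adjusted p = 0.0383) for Adgre1 and 0.83 (SE 0.23, 0.0281) for Cd5l. These calls held in 3 of 12 fits that left out 1 library for Adgre1 (limma adjusted p up to 0.0859) and in 4 of 12 for Cd5l (up to 0.0695). The Kupffer cell lectin gene Clec4f (0.41, limma adjusted p = 0.0621) and the complement receptor gene Vsig4 (0.42, 0.0864) were not called. Clec4f ranged from 45.1 to 90.3 FPKM and Vsig4 from 17.6 to 36.5.

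**Figure D3:**
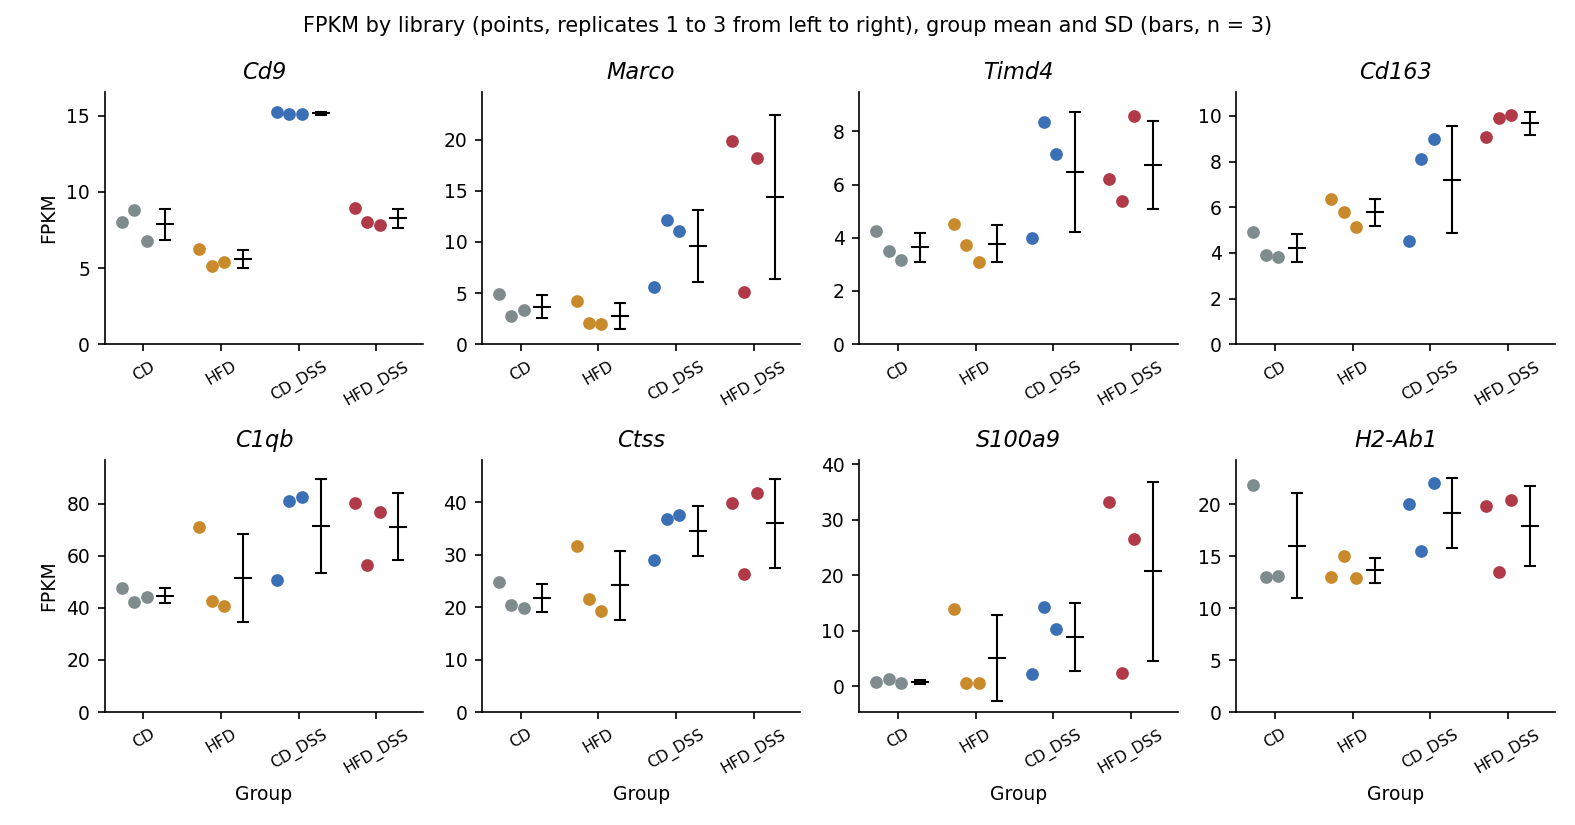
FPKM of 8 marker genes in each library (points, replicates 1 to 3 from left to right in each group), with the group mean and SD as bars (n = 3). CD_DSS 1 lies near or within the CD range for Timd4, Cd163 and C1qb but not for Cd9, where the 3 CD_DSS libraries lie at 15.1 to 15.3 FPKM. S100a9 is under 2 FPKM in all CD libraries and in HFD 2 and 3.

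The 3 subunits of C1q, the recognition protein of the classical complement pathway, are neighbours on the minus strand of chromosome 4 (C1qb chr4:136880129-136886187, C1qc chr4:136889804-136893065, C1qa chr4:136895917-136898803). C1qb measured 47.7, 42.1 and 44.2 FPKM in CD, 71.0, 42.8 and 40.7 in HFD, 50.6, 80.9 and 82.7 in CD_DSS, and 80.4, 56.3 and 76.8 in HFD_DSS. C1qc measured 23.9, 21.8 and 21.3 FPKM in CD, 33.6, 22.3 and 19.998 in HFD, 24.6, 42.3 and 42.3 in CD_DSS, and 37.8, 25.7 and 43.6 in HFD_DSS. For both genes every CD_DSS library lay above CD, and HFD 1 lay above HFD_DSS 2. The averaged log2 fold changes were 0.56 (SE 0.17, limma adjusted p = 0.0367) for C1qb, 0.56 (SE 0.18, 0.0452) for C1qc and 0.48 (SE 0.17, 0.0627, not called) for C1qa, which ranged from 39.7 to 84.1 FPKM. The calls of C1qb and C1qc each held in 3 of 12 fits that left out 1 library (limma adjusted p up to 0.0880 and 0.107).

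Of 5 general macrophage markers, 2 rose in the averaged effect. Ctss, the lysosomal protease cathepsin S, measured 24.8, 20.5 and 19.9 FPKM in CD, 31.7, 21.6 and 19.2 in HFD, 29.0, 36.9 and 37.6 in CD_DSS, and 39.9, 26.2 and 41.8 in HFD_DSS. On CD the groups did not overlap, and on HFD only HFD_DSS 2 lay under HFD 1. Its averaged log2 fold change of 0.60 (SE 0.15, limma adjusted p = 0.0167) held without each single library. Mpeg1, the pore-forming perforin-2 of phagocytes, measured 26.3, 21.4 and 19.3 FPKM in CD, 32.0, 23.8 and 23.8 in HFD, 23.0, 40.9 and 38.8 in CD_DSS, and 40.4, 33.7 and 43.2 in HFD_DSS (0.56, SE 0.15, limma adjusted p = 0.0240). HFD_DSS lay above HFD in every library, and the averaged call held in 4 of 12 fits that left out 1 library (limma adjusted p up to 0.0608). The endosomal glycoprotein gene Cd68 (0.49, limma adjusted p = 0.0590), the CSF1 receptor gene Csf1r (0.52, 0.0659) and the lysozyme gene Lyz2 (0.26, 0.368) were not called. Lyz2, which monocytes and neutrophils also express, ranged from 32.6 to 77.6 FPKM. Of the exon bases of Csf1r, 15.1% overlap Hmgxb3 on the opposite strand, and it is not stated whether counting used the strand.

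Among the recruited monocyte and dendritic cell markers, only Fcgr1 was tested. This gene of the high-affinity IgG receptor CD64, which Kupffer cells also carry, measured 1.84, 1.21 and 1.48 FPKM in CD, 3.36, 1.99 and 1.88 in HFD, 1.93, 4.23 and 4.57 in CD_DSS, and 3.38, 2.63 and 3.62 in HFD_DSS. CD_DSS lay above CD, while HFD 1 fell inside HFD_DSS. Its averaged log2 fold change was 0.57 (SE 0.17, limma adjusted p = 0.0345), with 0.82 on CD and 0.32 on HFD, and this call held in 4 of 12 fits that left out 1 library (limma adjusted p up to 0.0828). Itgam, Itgax and Ccr2 remained far under 1 FPKM in all libraries, DSS included. Itgam had group means of 0.114 FPKM in CD, 0.0776 in HFD, 0.211 in CD_DSS and 0.234 in HFD_DSS, from 6 to 32 fragments per library, and 68.7% of its exon bases overlap Gm49368 on the same strand. Ccr2, the receptor by which classical monocytes leave the bone marrow, had means of 0.201, 0.227, 0.305 and 0.327 FPKM in these groups, from 22 to 73 fragments.

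Of the 5 lipid-associated macrophage markers, 3 were tested and Cd9 alone was called. Cd9, a tetraspanin found on many cell types besides macrophages (chr6:125460266-125494791, minus strand), measured 8.02, 8.84 and 6.79 FPKM in CD, 6.28, 5.13 and 5.39 in HFD, 15.3, 15.1 and 15.1 in CD_DSS, and 8.93, 8.02 and 7.82 in HFD_DSS. Every CD_DSS library was above and every HFD library below those of the other groups, CD and HFD_DSS overlapped, and CD_DSS 1, low for most markers, was as high as CD_DSS 2 and 3. The group means were 7.88 ± 1.03 (SD, n = 3) in CD, 5.60 ± 0.601 in HFD, 15.2 ± 0.0816 in CD_DSS and 8.26 ± 0.593 in HFD_DSS. Cd9 rose with DSS 1.83-fold in FPKM + 1 on CD (log2 0.87, SE 0.10, limma adjusted p = 0.00300) and 1.41-fold on HFD (log2 0.49, SE 0.10, limma adjusted p = 0.0262). The averaged effect was 0.68 (SE 0.07, limma adjusted p = 5.46e-04), and this call and that on CD held in all 12 fits that left out 1 library. The call on HFD was lost without HFD 2, HFD 3, HFD_DSS 1 or HFD_DSS 3 (limma adjusted p up to 0.123). Of the exon bases of Cd9, 10.7% overlap Gm26728, a transcript on the opposite strand, which without strand information cannot be told apart.

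Spp1, which encodes osteopontin, ranged from 15.1 to 35.0 FPKM and was not called in any comparison of all 12 libraries (averaged 0.32, SE 0.16, limma adjusted p = 0.172). Cholangiocytes also express Spp1, and it stands in both the lipid-associated and the cholangiocyte list. The galectin-3 gene Lgals3 ranged from 1.97 to 5.98 FPKM (averaged 0.41, SE 0.17, limma adjusted p = 0.108). Without the 3 libraries that stand apart, both were called in the averaged effect, Spp1 with 0.45 (SE 0.12, limma adjusted p = 0.0258) and Lgals3 with 0.72 (SE 0.11, 0.00136). That choice was made after the data were seen, by values that move with the markers. For Spp1 the log2 fold change was then 0.79 on HFD but 0.10 on CD (limma adjusted p = 0.713, not called). CD_DSS 1, left out in this fit, held the highest Spp1 of all libraries (35.0 FPKM). Trem2 and Gpnmb, the defining members of this set, averaged 0.222 and 0.0416 FPKM over all libraries. Trem2 had means of 0.243 FPKM in CD, 0.179 in HFD, 0.168 in CD_DSS and 0.299 in HFD_DSS, from 12 to 37 fragments, and Gpnmb rested on at most 14 and was listed at 0 in HFD 1. Neither reached the level for a test.

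The neutrophil markers had the highest median log2 fold change of all roles in the averaged DSS effect (1.42 over the 3 tested) and a wide spread between libraries. S100a9, a subunit of calprotectin (chr3:90692632-90695721, minus strand), measured 0.703, 1.19 and 0.513 FPKM in CD, 14.0, 0.553 and 0.558 in HFD, 2.18, 14.2 and 10.2 in CD_DSS, and 33.2, 2.41 and 26.5 in HFD_DSS. Its partner S100a8 (chr3:90668978-90670035, plus strand) measured 0.646, 0.655 and 0.606 FPKM in CD, 6.35, 0.416 and 0.660 in HFD, 0.724, 5.32 and 3.49 in CD_DSS, and 15.2, 1.30 and 14.4 in HFD_DSS. For S100a8 the untreated library HFD 1 was higher than all 3 CD_DSS libraries and HFD_DSS 2. For S100a9 it was higher than CD_DSS 1, CD_DSS 3 and HFD_DSS 2. Retnlg, a resistin-like gene of neutrophils, measured at most 5.99 FPKM, in HFD_DSS 1, and 0.129 to 0.767 in CD. With all 12 libraries the averaged log2 fold changes were 2.18 (SE 0.71, limma adjusted p = 0.0513) for S100a9, 1.42 (SE 0.56, 0.0958) for S100a8 and 0.92 (SE 0.35, 0.0870) for Retnlg, none of them called. Without the 3 libraries that stand apart, they were 3.59 (SE 0.14, limma adjusted p = 1.44e-06), 2.53 (SE 0.11, 2.20e-06) and 1.56 (SE 0.18, 4.24e-04). These libraries were left out after the data were seen, so the smaller SE and p follow in part from that choice. For all 3 genes, the libraries left out were the highest of HFD and the lowest of each DSS group. These genes passed the expression level through the libraries in which they were high, and S100a8 rested on 7 to 239 fragments per library.

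The MHC class II genes, which encode the chains that present antigen to CD4+ T cells (H2-Aa, H2-Ab1, H2-Eb1) and the invariant chain (Cd74), had the lowest median of all roles (0.32). Cd74 measured 78.2, 53.5 and 47.0 FPKM in CD, 49.4, 56.3 and 47.7 in HFD, 61.2, 55.3 and 86.5 in CD_DSS, and 74.3, 50.5 and 76.5 in HFD_DSS. CD 1 lay among the DSS libraries, and HFD 1 did not stand above HFD 2 and 3, unlike for most other markers. H2-Aa, H2-Ab1 and H2-Eb1 were also highest among the CD libraries in CD 1, at 17.3, 21.8 and 24.2 FPKM, and for H2-Eb1 this was the highest of all 12 libraries. The averaged log2 fold changes of the 4 genes were 0.28 to 0.35 (limma adjusted p = 0.0972 to 0.235). Without the 3 libraries that stand apart they were 0.36 to 0.39 (0.0722 to 0.161), and these 4 were then the only tested markers not called. Those libraries were left out after the data were seen, by a split that most markers followed. The class II median was low in HFD 1 (−0.34) and high in CD_DSS 1 (0.24), against that split, though low in HFD_DSS 2 (−0.25). That these 4 stayed uncalled therefore follows in part from the choice of libraries. Whether the response of these genes differed from that of the other markers was not tested.

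None of the 5 tested leukocyte signalling genes was called, although all had an averaged log2 fold change of 0.45 to 0.58 (limma adjusted p = 0.0517 to 0.0977). Tyrobp, which encodes the adaptor DAP12, was the highest of them. It measured 12.6, 10.4 and 10.3 FPKM in CD, 21.8, 12.9 and 8.98 in HFD, 11.3, 19.5 and 21.3 in CD_DSS, and 26.1, 13.7 and 26.9 in HFD_DSS. HFD 1 again lay above HFD_DSS 2, and CD_DSS 1 was no higher than CD 1. Fcer1g, the common gamma chain of Fc receptors, ranged from 7.99 to 16.6 FPKM, the lysosomal membrane gene Laptm5 from 6.09 to 14.0, the phagocyte oxidase gene Cybb from 3.32 to 7.85 and Spi1 from 1.95 to 5.25. Without the 3 libraries, all 5 were called in the averaged effect (log2 0.69 for Laptm5 to 1.03 for Tyrobp). These 3 were left out after the data were seen, by values that move with the markers.

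**Figure D4:**
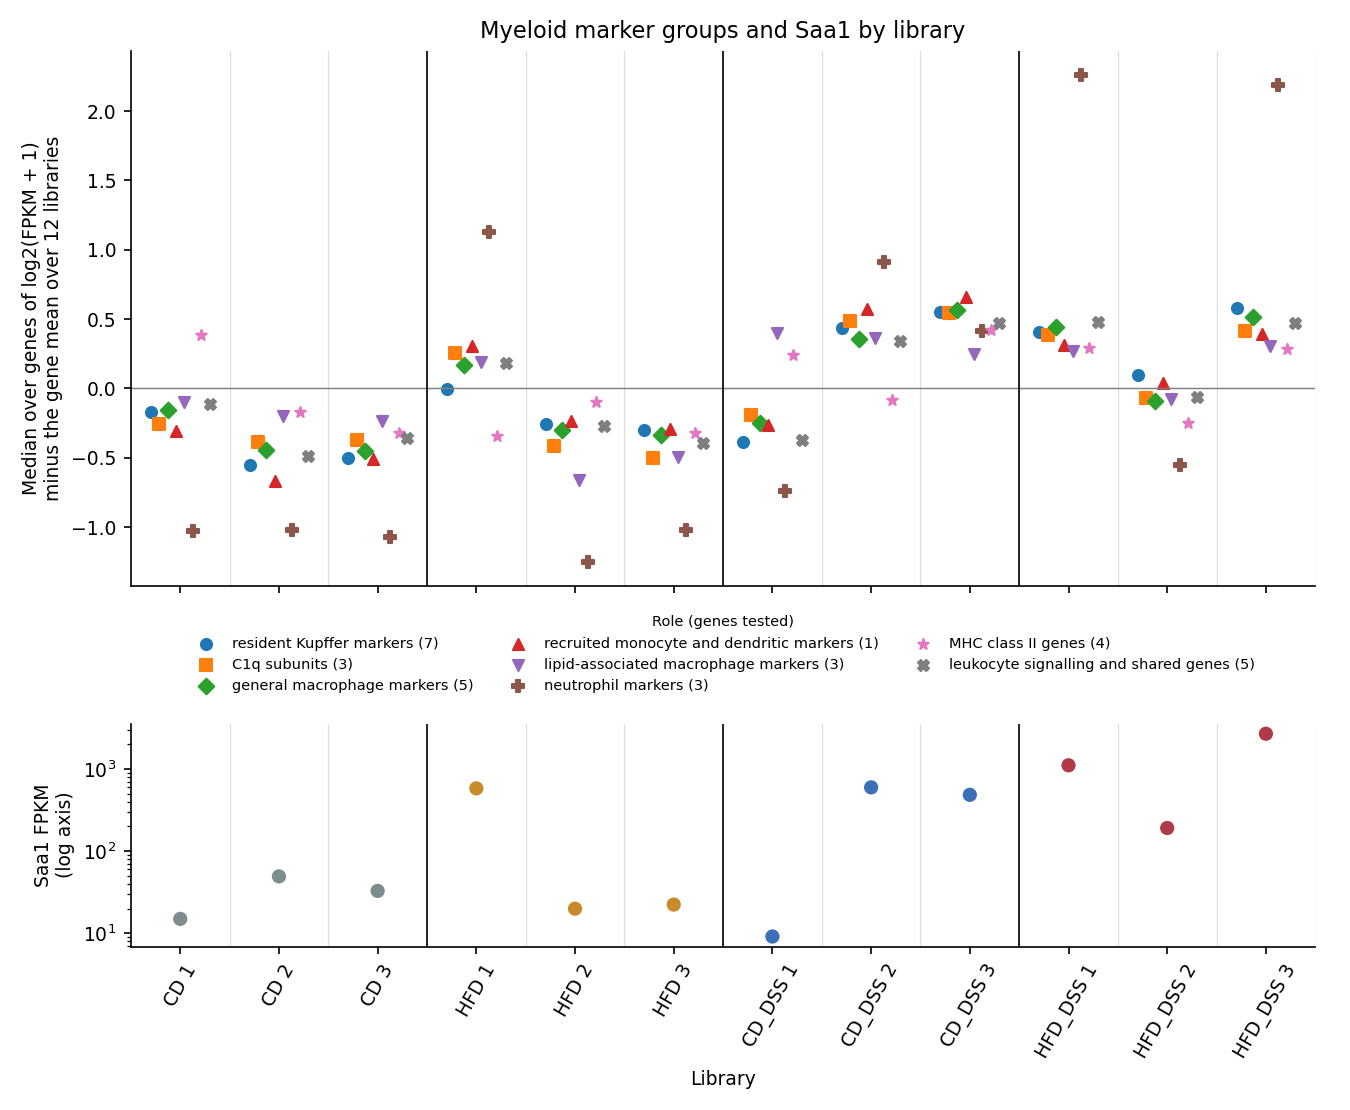
Upper panel, for each library (columns), the median over the tested genes of each role of log2(FPKM + 1) minus the mean of the gene. Lower panel, Saa1 in FPKM on a log axis. Most roles are high where Saa1 is high, HFD 1 included, and low in CD_DSS 1, where Saa1 is 9.14 FPKM. The MHC class II genes (stars) are low in HFD 1 and high in CD 1 and CD_DSS 1, and the lipid-associated genes (triangles pointing down) are also high in CD_DSS 1.

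Diet without DSS changed no marker past the threshold. In HFD against CD, limma called 0 of 31 markers (1 at an unadjusted p under 0.05, Cd9) and 0.00925% of all tested genes, with 726 genes at an unadjusted p under 0.05, and voom on the recovered fragments also called 0 markers. Cd9 was lower in all HFD than in all CD libraries (log2 −0.43, SE 0.10, limma adjusted p = 0.266). Cd163, Fcgr1 and Spi1 were higher in all HFD libraries, with log2 fold changes of 0.38, 0.42 and 0.31 (limma adjusted p = 0.763, 0.817 and 0.891). These were 3 of 31 markers, where 6.58% of all tested genes lay higher without overlap, and Cd9 was the 1 marker lower without overlap, against 6.54% of genes. In HFD_DSS against CD_DSS, Cd9 was called lower (1.75-fold in FPKM + 1, log2 −0.81, SE 0.10, limma adjusted p = 0.0156), 1 of 31, where 0.102% of all tested genes were called, 0.0648% lower and 0.037% higher. Cd9 was also the 1 marker lower without overlap (8.97% of genes), and Cd163 the 1 higher without overlap (7.53%; log2 0.42, limma adjusted p = 0.435). This call shares the CD_DSS libraries with that of CD_DSS against CD, and it was lost without CD_DSS 3 or HFD_DSS 3 (limma adjusted p up to 0.120). With all 12 libraries S100a8 (log2 1.18, limma adjusted p = 0.625) and S100a9 (0.85, 0.801) were not called in this comparison. HFD 1, CD_DSS 1 and HFD_DSS 2 were then left out, after the data were seen, which left CD_DSS 2 and 3 against HFD_DSS 1 and 3. The libraries left out include the lowest of each DSS group for both genes, so that leaving them out narrows the spread. In this fit S100a8 (log2 1.57, SE 0.16, limma adjusted p = 0.00787) and S100a9 (1.23, SE 0.20, 0.0456) were called higher in HFD_DSS than in CD_DSS. Cd9 was called lower (−0.78, SE 0.12, 0.0340), where 0.763% of genes were called. The calls of S100a8 and S100a9 rest on that choice of libraries, and both genes passed the expression level through the libraries in which they were high.

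The DSS effect was not shown to differ between the diets for any marker. In this difference limma called 0 of 31 markers, with 1 at an unadjusted p under 0.05, against 0.00925% of all tested genes called and 533 at an unadjusted p under 0.05. With voom the count was also 0. The 1 marker was Cd9, whose DSS effect on HFD was smaller than that on CD by 0.38 on the log2 scale (difference −0.38, SE 0.14, unadjusted p = 0.0196, limma adjusted p = 0.9999). Marco had a difference of 0.75 (SE 0.62, limma adjusted p = 0.9999). Over the 28 genes expressed in every library, the median difference was 0.02, against −0.01 over all tested genes.

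Of 86 further myeloid genes, 57 were tested. In the averaged DSS effect 21 rose and 1 fell, where 8.72% of all tested genes were called higher and 11.2% lower. On CD 3 rose and 1 fell, against 2.01% higher and 2.79% lower, on HFD 1 rose and 1 fell, near the 1.73% higher and 3.1% lower of all tested genes, and none was called in the other comparisons. Of 18 tested Kupffer cell genes 9 rose and 1 fell in the averaged effect. Among those that rose were Id3 (0.81), the sialoadhesin gene Siglec1 (0.75) and the haem oxygenase gene Hmox1 (0.73). The log2 fold changes of the 18 ran from −1.68 to 0.81, with a median of 0.39, so the largest in size was a fall. Of 10 tested growth factor and chemokine genes 3 rose, Cxcl1 (3.49), Ccl6 (0.70) and Csf2ra (0.47). Cxcl1, a chemoattractant of neutrophils, measured 1.22, 1.46 and 0.408 FPKM in CD, 8.13, 0.572 and 0.999 in HFD, 14.9, 21.6 and 18.9 in CD_DSS, and 53.4, 14.6 and 70.9 in HFD_DSS. Unlike S100a8 and S100a9 it was high in CD_DSS 1 as well.

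Of 12 tested Fc receptor, DAP12 partner and oxidase genes, 4 rose in the averaged effect, among them Cyba (0.58), Itgb2 (0.46) and Syk (0.44). Of 4 tested genes of class II peptide loading, 3 rose: the lysosomal protease gene Lgmn (0.63), the thiol reductase gene Ifi30 (0.58) and H2-DMa (0.41). Only 1 of 11 tested further lipid-associated macrophage genes rose, the cathepsin gene Ctsl (0.41). Of 12 further neutrophil genes only Lcn2 and Il1b were tested. Lcn2, which hepatocytes also produce in the acute phase, rose (4.26, SE 1.04, limma adjusted p = 0.0162). The granule genes of immature neutrophils remained low, with Elane at most 0.553 FPKM, Mpo at most 0.125 and Camp at most 0.718, and Mpo was listed at 0 in 5 libraries and Camp in 6.

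The medians of the endothelial, stellate cell and hepatocyte lists were near 0 in the averaged DSS effect. That of the 3 tested cholangiocyte genes, Spp1 among them, was 0.32. Of all tested genes, 8.72% were called higher in this effect and 11.2% lower. Of 7 sinusoidal endothelial genes 2 rose in the averaged effect (Lyve1 0.39 and Clec4g 0.36, median of all 7 −0.02), and their summed level was 73.7 to 80.7 FPKM in CD, 60.5 to 76.7 in HFD, 76.9 to 103 in CD_DSS and 61.8 to 77.5 in HFD_DSS. Of 7 stellate cell and fibroblast genes 1 rose (Dcn 0.55, median −0.01), and of 6 hepatocyte genes 2 rose (Fgb 1.23 and Hnf4a 0.53, median 0.07). Sox9 was the 1 of 3 tested cholangiocyte genes that rose (0.91), while Krt19 measured 0.267 to 1.61 FPKM and Krt7 0.0297 to 0.205. Lymphocyte and dendritic cell markers were low. Of 9 T and NK cell genes only Cd4 was tested, which fell on CD (−0.58, limma adjusted p = 0.0488) and in the averaged effect (−0.57, 0.00534) but was not called on HFD (−0.56, 0.0540), and the summed level of the 9 was 2.12 to 5.43 FPKM over all libraries. Of 6 B cell genes only Ighm was tested and not called. The B cell genes summed to 3.41 to 6.97 FPKM in CD and 1.92 to 3.83 in the other groups, and the 5 dendritic cell genes summed to 0.821 to 1.91 FPKM. The 6 globin and haem genes of red cells, of which Alas2 fell on both diets (−0.90 on CD, limma adjusted p = 0.0105, and −0.72 on HFD, 0.0262), summed to 702 FPKM in HFD 1 and 589 in CD_DSS 3 against 173 to 372 in the other libraries. The part of these other cells in the myeloid results was not tested.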

How the data were processed

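FPKM values per gene were deposited by the authors as 1 table of 12 liver libraries, made against mm10 per the submitters' processing notes. The aligner, counter and strand setting were not given in the sources used here. IDs were matched to GENCODE for names and positions (99.9% of 54532). Depth was recovered from the FPKM steps: 97.0 to 97.3% of values under 500 fragments per library came within 0.02 of a whole number.

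log2(FPKM + 1) of genes at 1 FPKM or more in at least 3 libraries was fitted with limma 3.58.1 (R 4.3.3) as 4 group means, with a trend in the prior variance, so that all groups share 1 estimate of the spread. The 6 comparisons were DSS within each diet, diet without and with DSS, the difference between the DSS effects, and their average. Tests were two-sided with Benjamini-Hochberg adjustment over all tested genes. Fold changes are on the log2(FPKM + 1) scale, which understates changes of low genes. The procedure was tested on simulated data in which genes varied independently, so this did not cover libraries or markers that shift together.

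The members and lists were chosen with earlier results of these data known. All 38 members are named by role, with values per library for those called in any comparison and, for a role without one, at least for its most abundant gene. Further lists are given as counts, with up to 4 called genes each, beside Saa1. Some genes of these further lists are not reported here. Alternatives were a pseudocount of 0.1, no filter, a mean of at least 5 FPKM, TPM, median-of-ratios scaling, 2 groups alone, a replicate block and leaving out each library. Leaving out 3 libraries together, and voom on the recovered fragments, were added after seeing the data.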

Additional observations from a re-analysis of the deposited data

How the results depend on the processing

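No marker reversed its direction among the called values in any alternative run. In CD_DSS against CD, 1 marker was called, 1 to 16 when 1 library was left out (16 without CD_DSS 1, 2 without HFD_DSS 2) and 25 without the 3 libraries that stand apart. In HFD_DSS against HFD, 2 were called, 0 without a filter on low values, 1 with 2 groups alone (Cd163, so that both Marco and Cd9 were lost), 1 with voom (Cd9), 26 without the 3 libraries, and 0 to 8 when 1 library was left out (0 without HFD 2, HFD 3, HFD_DSS 1 or HFD_DSS 3, 1 without CD 2 or CD 3, 5 without HFD_DSS 2, 8 without CD_DSS 1). In HFD_DSS against CD_DSS, 1 was called, 0 with 2 groups alone, 3 without the 3 libraries, and 0 to 1 when 1 library was left out. In the averaged DSS effect 11 were called, 6 without a filter, 19 of 32 on TPM, 27 without the 3 libraries, and 5 to 24 when 1 library was left out (24 without CD_DSS 1, 23 without HFD_DSS 2, 20 without HFD 1, 5 without any of CD 2, CD 3, HFD 2, HFD 3, CD_DSS 2, CD_DSS 3, HFD_DSS 1 or HFD_DSS 3). HFD against CD and the difference between the DSS effects had 0 in each. The averaged calls of Cd9, Timd4, Marco, Cd163 and Ctss, and that of Cd9 on CD, held in every alternative run, while those of Adgre1, Cd5l, C1qb, C1qc, Mpeg1 and Fcgr1 held in 3 or 4 of 12 fits without 1 library. On TPM the share of called genes that were higher was 61.2% against 41.8% in CD_DSS against CD, 67.6% against 35.8% in HFD_DSS against HFD, 54.5% against 36.4% in HFD_DSS against CD_DSS, and 59.4% against 43.7% in the averaged effect. The cause of these differences was not tested. Same-numbered libraries showed no clear common deviation (correlations of −0.36 to 0.26, median 0.03 against −0.02 for other pairs). With 3 libraries per group this cannot exclude that the numbers pair them. With the replicate number as a block, 1 marker was called in HFD_DSS against HFD (Cd9) and 6 in the averaged effect. The untested markers other than Ptprc rested on at most 73 fragments per library.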
